A study of Canis lupus familiaris with 33 samples.

Results

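The methylated regions of the dog cerebrum were set against those of 10 other tissues. A peak is a stretch of the genome called as enriched in DNA captured by a methyl-CpG-binding domain (MBD). Merging the autosomal peaks of the 11 tissue lists gave 450791 union regions. A tissue was present in a region where 1 of its peaks overlapped it by at least 1 base. Cerebrum was present in 279652 of them, or 62.0%. Of these, 3816 had a peak in no other list and 121528 had a peak in all 11 lists. A further 1428 regions had a peak in every list but that of cerebrum. Members were thus chosen by the presence of peaks, and the counts themselves are descriptions.

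The tissues, given as normal and adult, came from beagles described in the labels as 1 male and 2 females, and every tissue had 2 MBD libraries and 1 input library of uncaptured DNA. No age in years, treatment or genotype was given. The cerebrum libraries were titled with animals 679 (female) and jj8 (male), and its input with animal jj8, which the input label gives as female. Cerebellum, liver, lung and spleen carried the same MBD and input animals in their titles. Kidney and pancreas had the same MBD animals with an input of animal 679, colon and stomach had animals 679 and jj82 with an input of jj8, and mammary gland and ovary had animals 244 and 679 with an input of 679. The 4 animal names in the titles exceed the 3 dogs described. Both MBD libraries of a tissue carried 1 list, so no spread between animals exists within a tissue and no test between tissues was made. The other 10 lists give the only spread, and the rank of cerebrum among 11 lists could not reach a one-sided p below 0.0909. The label of the tissue could not be checked against marker genes, because no gene positions of this genome build were used here.

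In mammals, methyl groups sit mainly on cytosines followed by guanine (CpG). MBD capture recovers a DNA fragment more readily the more methylated CpGs it holds, so a peak needs both methylation and a sufficient density of CpGs. A stretch without a peak may still be methylated at sparse sites. The cerebrum holds neurons, astrocytes, oligodendrocytes and microglia, and neurons are known for abundant methylation at cytosines outside CpG as well, which a capture aimed at CpGs is not designed to read. In bulk tissue, the share of cells that carry a mark and the level of the mark per cell cannot be told apart.

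The autosomal cerebrum list held 296594 peaks over 192 Mb, the second largest covered length of the 11 lists after ovary. Its median peak was 359 bases wide, level with kidney and above the 297 to 357 bases of the other 9 lists. Its fold enrichment, the ratio deposited by the authors for each peak, had a median of 6.27. Lung had the lowest median of the others, 6.19, and stomach the highest, 8.80. The shortest cerebrum peak was 210 bases, and kidney, lung, mammary gland and ovary also had shortest peaks over 200 bases. Read depth was unknown, since the lists hold no reads, and intervals on shares below cover counting error only.

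Most cerebrum regions were widely shared. Regions found in all 11 lists made up 43.5% of the cerebrum regions, and those found in 10 lists another 13.7%. Each class from 2 to 7 lists held between 3.40% and 5.01%. The fold was higher in more widely shared regions. The median cerebrum fold was 3.71 in regions found in cerebrum alone, 4.81 in regions of 6 lists, 6.35 in regions of 10 lists and 9.51 in regions of all 11. The median region width ran alongside from 255 to 798 bases. The plot of sharing shows both patterns.

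**Figure D1:**
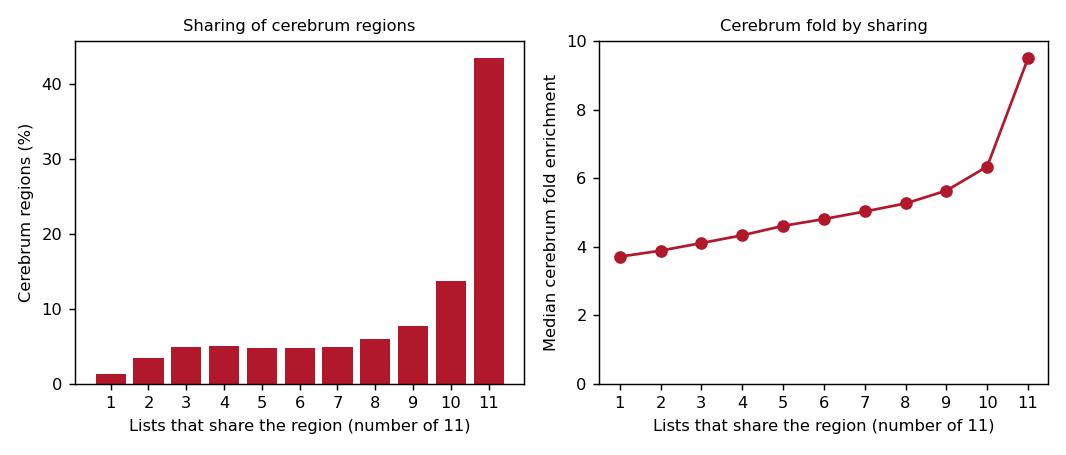
Left, percent of the cerebrum regions (y axis) by the number of lists that hold the region (x axis). Right, median cerebrum fold enrichment (y axis) on the same x axis. The bar for all 11 lists stands at 43.5%, and the median fold is higher at every step, from 3.71 to 9.51.

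The list that overlapped cerebrum most was that of ovary, which held 86.9% of the cerebrum regions, followed by kidney with 82.6% and cerebellum with 81.0%. Colon held the fewest, with 69.2%. In the other direction, cerebrum regions took in 72.6% of the ovary regions, 72.7% of the cerebellum regions and 88.9% of the colon regions. Ovary and cerebellum also had the most regions of all lists, 334440 and 311256, and kidney had 278773. The part of list size in these shares was not tested. Among the 9499 regions found in cerebrum and 1 other tissue, the partner was cerebellum in 4385 (46.2%) and ovary in 3108 (32.7%). Both lists were also the most frequent among all regions found in a single list, at 42.7% for cerebellum and 32.2% for ovary. Kidney came next with 687, and pancreas last with 62. Among the 3269 regions missing from cerebrum and 1 other list, cerebellum was the partner in 1305 (39.9%), followed by lung with 372. Cerebellum also had the highest count of regions lacking in 1 list alone, 13152.

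The 3816 regions with a peak in cerebrum alone were 1.36% of the cerebrum regions (95% Wilson interval 1.32 to 1.41%). They were 4.65% of the 82092 regions found in a single list. The same count was 35015 in cerebellum, 26412 in ovary, 4500 in liver and 4079 in kidney, and ranged from 418 in pancreas to 2948 in spleen in the remaining 6 tissues. Cerebrum ranked 5 of 11 and lay close to kidney and liver. Without cerebellum among the lists, 8302 regions were found in cerebrum alone, and without ovary 7050.

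The regions found in cerebrum alone were short and weak beside the rest of the cerebrum list. Their median width was 255 bases, and each held a single peak. Their fold ranged from 1.90 to 8.82 with a median of 3.71, or 0.59 of the median of the whole list. In 86.4% of them the fold lay in the lowest 25% of the cerebrum list. The negative log10 of the p-value deposited by the authors had a median of 8.05 in them and of 22.1 over all autosomal cerebrum peaks. A fold above the list median occurred in 20 of the 3816, or 0.52%, the lowest share of the 11 lists, whose others ranged from 0.59% in lung to 9.32% in colon. Relative to the list median, the 0.59 of cerebrum ranked 8 of 11, within the 0.52 of stomach to 0.67 of ovary. They often sat beside regions of other tissues: 51.0% lay within 1 kb of a region of another list, with a median distance of 961.5 bases. The same share ranged from 38.4% in mammary gland to 60.9% in liver.

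Of the regions found in cerebrum alone, the strongest occupied chromosome 3 at 87774949 to 87775404 (build CanFam3.1, as for all positions here). It had a fold of 8.82 and a negative log10 p-value of 36.9. A fold of 8.76 was found at chromosome 6, 32272873 to 32273208. It was followed by chromosome 38 at 1865508 to 1865848 (fold 8.05) and chromosome 16 at 18363379 to 18363935 (fold 7.81). A gap followed, and the other 6 of the strongest 10 had folds of 6.83 to 6.96, on chromosomes 3, 4, 5, 18, 19 and 37. In the other 10 lists the strongest region of the same kind had a fold between 8.09 in lung and 21.0 in mammary gland.

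The 1428 regions lacking a peak in cerebrum alone were 3.60% of the 39706 regions found in exactly 10 lists (95% Wilson interval 3.42 to 3.78%). Stomach had a lower count, 1414, and the other 9 tissues had 1914 in liver to 13152 in cerebellum. The plot of both counts by tissue shows cerebrum in the middle of one ranking and next to the bottom of the other. The lacking regions were 361 bases wide at the median. In them the fold of the other 10 lists, each divided by its own list median (relative fold below), had a median of 0.91 and passed 1.16 in 10% of them. A cerebrum peak lay within 1 kb of 32.0% of them, with a median distance of 2033 bases. Without cerebellum among the lists, the count was 2736.

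**Figure D2:**
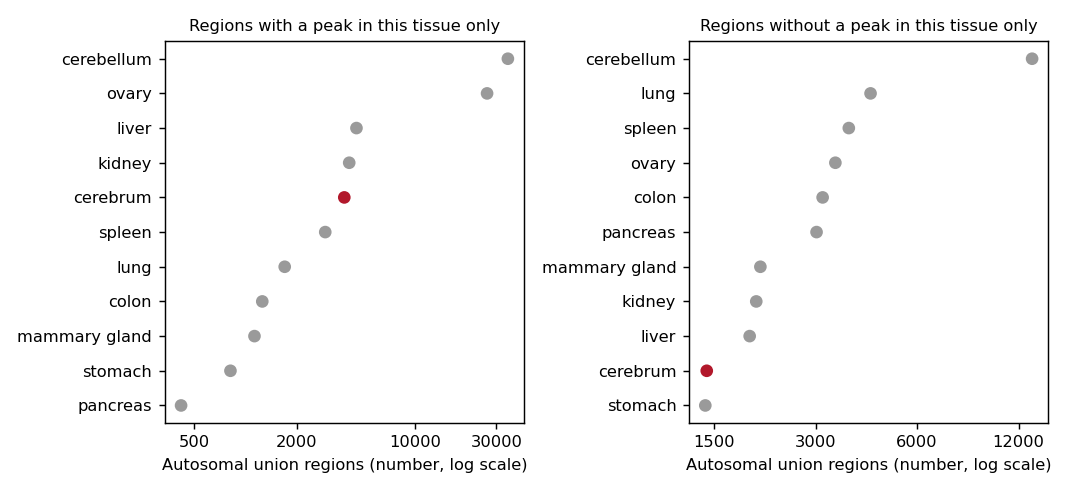
Number of autosomal union regions (x axes, log scale) with a peak in 1 tissue only (left) and without a peak in 1 tissue only (right), for 11 tissues with 1 list each. Cerebrum, in red, has 3816 and 1428, while cerebellum leads both with 35015 and 13152.

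The 10 lacking regions with the highest relative fold at the median of the other lists depended on the lists and rules used. In the strongest 50% of each list 3 of them were still lacking in cerebrum alone, with equal list sizes 6, and where presence meant covering 50% of the region 4. On chromosome 21 at 21294717 to 21295070, the other 10 folds ran from 8.83 in ovary to 20.5 in mammary gland with a median of 16.5, and cerebellum had 12.9. The relative fold there was 2.16 at the median of the 10 lists and 1.35 at the lowest. On chromosome 2 at 65592376 to 65592790, the folds ran from 5.36 in ovary to 20.0 in stomach, and cerebellum had 8.92. Cerebellum was the lowest of the 10 at chromosome 25, 44871500 to 44873223, with a fold of 4.57 beside a median of 11.9. It was also lowest at chromosome 35, 926962 to 927696, with 6.04 beside a median of 12.5. Across the 10 strongest lacking regions the relative fold of cerebellum ranged from 0.67 to 2.14.

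In the 121528 regions present in all 11 lists, the highest fold of a tissue within the region was divided by its list median, and cerebrum was expressed as a log2 ratio to the median of the other 10. The ratios had a median of -0.01 and an SD of 0.45, with extremes of -2.52 and 1.68. Cerebrum was at least 1.5 times higher in 9171 regions, or 7.55%, and at least 1.5 times lower in 14127, or 11.6%. At 2 times the counts were 585 (0.481%) and 2975 (2.45%). Cerebrum lay above all other 10 lists in 9735 regions (8.01%) and below all 10 in 9412 (7.74%). It was both 1.5 times higher and the highest of the 11 in 4934 regions, and both lower and the lowest in 6988. For the other tissues, the share at least 1.5 times higher ranged from 2.91% in pancreas to 15.8% in mammary gland, and the share lower from 6.65% in kidney to 20.9% in ovary, so neither cerebrum share was extreme. Lower regions were 60.6% of those past 1.5 times. That share became 73.1% when the median was taken over the shared regions, 74.2% with lists cut to equal size and 72.8% in the strongest 50% of each list. It was 54.8% in regions with 1 peak in every list, 56.1% with folds weighted by width, 56.5% against tissues of the same animals and input, and 59.1% with quantile normalization. In these 4 settings the median ratio was above 0, between 0.01 and 0.03.

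The direction of the ratio followed the strength of the region. When shared regions were put in 10 equal bins by the median relative fold of the other 10 lists, the cerebrum median was lower at each step, from 0.30 in the weakest bin to -0.34 in the strongest. Higher regions went from 23.3% to 0.016% across the bins, and lower ones from 2.58% to 26.3%. The difference between strongest and weakest bin was -0.64 in cerebrum, -1.16 in ovary, -0.83 in cerebellum and -0.53 in liver, while it was 0.42 in lung and 0.62 in mammary gland. The bins rest on the median that is also the denominator of the ratio. The folds of shared regions spanned a narrow range in cerebrum, from 5.47 at the 10th percentile to 17.2 at the 90th. That ratio, 3.15, was lower only in ovary (2.57), and it reached 5.89 in mammary gland. When all lists were given 1 common distribution of folds (quantile normalization), the bin medians ran from 0.15 to -0.11, while 11196 regions were higher (9.21%) and 16206 lower (13.3%). From the weakest to the strongest bin, higher regions then went from 16.1% to 0.54%, and lower ones from 5.84% to 16.2%.

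**Figure D3:**
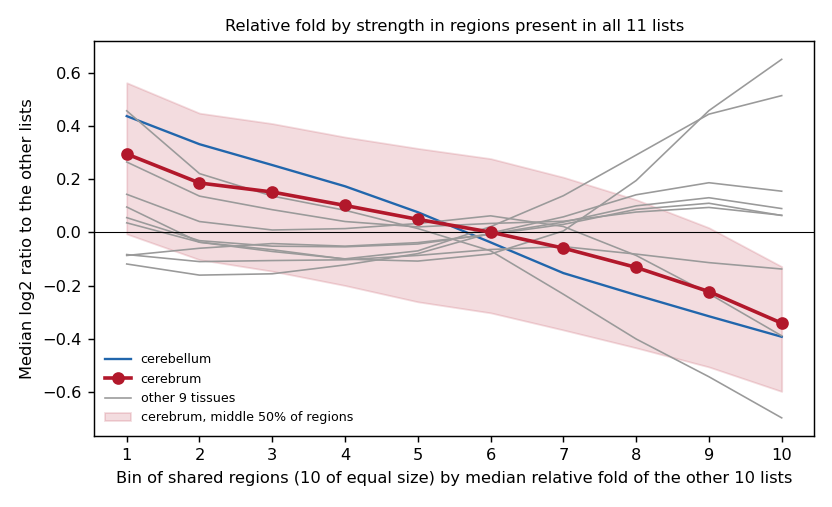
Median log2 ratio of each tissue to the median of the other 10 lists (y axis) in 10 equal bins of the shared regions, ordered by the median relative fold of the other lists (x axis, 1 weakest). Cerebrum (red, with its middle 50% of regions shaded) falls from 0.30 to -0.34, cerebellum (blue) falls further, and grey lines are the other 9 tissues.

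Wide regions behaved like strong ones. In 5 bins by region width, the cerebrum median ratio was 0.14 in the narrowest (352 bases at the median) and -0.18 in the widest (2492 bases). With quantile normalization these were 0.04 and -0.02. The regions higher in cerebrum had a median width of 598 bases and the lower ones 1052. Cerebrum peaks covered 668 bases of a shared region at the median, second to 677 in ovary and above 498 in pancreas to 661 in kidney in the other 9 lists. They covered more bases than the median of the other 10 lists in 83.2% of shared regions. That share was 98.6% in the higher regions and 57.1% in the lower ones. The list also had the highest share of shared regions that held a single peak of its own, 89.8%. Kidney, next in covered bases, shares the median peak width and the class of shortest peak with cerebrum. The part of these widths in the folds was not tested.

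Cerebellum and ovary stood nearest to cerebrum in the regions past 1.5 times. In the 14127 lower regions the median relative fold was 1.20 in cerebrum, 1.70 in ovary, 1.72 in cerebellum and 1.93 in liver, and 2.01 to 2.47 in the other 7 tissues. In the 9171 higher regions it was 1.71 in cerebrum, 1.31 in cerebellum and 1.24 in ovary, and 0.93 to 1.14 in the other 8. Over all shared regions the same medians lay between 1.42 and 1.54 in all 11 tissues. When cerebrum was not itself the lowest of the 11 in a lower region, the lowest list was most often cerebellum (2301 regions) or ovary (1941), and liver followed with 853. Ovary (15.7%) and cerebellum (15.1%) were also the lists most often lowest of the 11 over all shared regions.

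The region where cerebrum was lowest against the others lay on chromosome 5 at 48880738 to 48881626. Its fold was 2.37 in cerebrum, while the other 10 lists ran from 10.2 in spleen to 47.0 in mammary gland with a median of 14.9. Cerebellum had 15.1, so the low value was found in cerebrum and not in the other brain list. Relative to the list medians cerebrum was 5.74 times lower than the median of the others. A different pattern was seen on chromosome 9 at 56896522 to 56898175, where cerebrum had 3.23, cerebellum 7.69 and the other 9 lists 14.0 to 39.3. Both brain lists were low on chromosome 13 at 45578381 to 45579087, with 2.70 in cerebrum and 3.89 in cerebellum beside 7.43 to 23.8 in the other 9. On chromosome 21 at 20591814 to 20592804 cerebellum was lowest with 3.23, cerebrum had 3.48 and the other 9 lists had 6.0 to 27.2.

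By relative fold, among the 10 regions with the lowest ratios, cerebrum lay below all other lists in 9. The regions were chosen by this ratio, so a low place of cerebrum follows largely from the choice. Cerebellum lay below the median of the 10 other lists in 9 and was the lowest of them in 6, and ovary was the lowest in 3. Cerebellum is itself 1 of the lists behind that median, and the same counts over all shared regions are not given here. Cerebrum was 4.39 to 5.74 times lower than the median of the others in the 10 regions. These regions were spread over 9 chromosomes, and 2 of them lay near the end of the last union region of their chromosome, at 22.9 kb on chromosome 1 and 166 kb on chromosome 11. The latter, at 74221762 to 74223341, had a log2 ratio of -2.33, and of -1.68 against the 4 tissues of the same animals and input. All 10 also passed 1.5 times lower with quantile normalization, which rescales the same folds.

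The region where cerebrum was highest against the others lay on chromosome 9 at 50960586 to 50961580. Its fold was 12.6 beside 2.68 in liver to 7.25 in colon and a median of 4.86. Cerebellum had 4.36 there. Relative to the list medians cerebrum was 3.21 times higher than the median of the others, a log2 ratio of 1.68, which was 1.08 against the 4 tissues with a shortest peak over 200 bases. The next, on chromosome 10 at 12812776 to 12813293, was high in both brain lists, with 13.9 in cerebrum and 15.3 in cerebellum beside 3.93 to 8.15 in the other 9. On chromosome 10 at 60165723 to 60166210, cerebrum had 14.5, cerebellum 15.05 and colon 14.3, while the other 8 lists had 4.70 to 8.87. On chromosome 5 at 59642011 to 59642736, cerebrum had 14.5 beside 10.1 in lung, 9.93 in cerebellum and 4.18 in colon as the lowest, and its log2 ratio of 1.54 became 0.85 against the 4 tissues of the same animals and input. By relative fold, cerebrum lay above all other lists in 8 of the 10 regions with the highest ratios. That place follows largely from the choice of the regions by this ratio. Cerebellum lay above the median of the 10 others in 7, but it is itself 1 of the lists behind that median. The same count over all shared regions is not given here. Cerebrum was 2.68 to 3.21 times higher in the 10 regions, and all 10 passed 1.5 times with quantile normalization of the same folds.

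Lower regions lay in runs more often than higher ones. Runs of at least 3 regions with neighbours no more than 20 kb apart held 31.7% of the lower regions, in 1080 runs, and 11.9% of the higher regions, in 321 runs. The share for higher regions was 20.0% with quantile normalization (lower 30.6%), 7.09% with the list median over shared regions (lower 37.4%), 3.82% with equal list sizes and 2.64% in the strongest 50% of each list (lower 12.9%). In the other lists the share for lower regions ranged from 9.51% in lung to 56.0% in ovary, with 54.0% in cerebellum, and for higher regions from 1.93% in stomach to 49.1% in lung. Ovary and cerebellum also had the most lower regions, 25423 and 22838, while pancreas had 16184 with 28.4% in runs. The part of the count of regions in these shares was not tested.

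The run with the most lower regions spanned 140 kb on chromosome 19 at 53392904 to 53532987, which ends 209 kb before the last union region of that chromosome. Of its 34 shared regions 33 had a ratio below 0 and 23 were at least 1.5 times lower, with a median of -0.66 and, with quantile normalization, -0.60. The median relative fold there was 1.39 in cerebellum, 1.70 in cerebrum, 2.22 in ovary and 2.42 in liver, and up to 4.04 in mammary gland. Cerebellum was the lowest list in 17 of the 34 regions and cerebrum in 9, and both lay below the other 9 in 11. The next run by number of regions, on chromosome 13 at 38519943 to 38632940, had 17 lower regions of 32, with 1.74 in cerebrum as the lowest list and 1.97 in cerebellum. On chromosome 15 at 12864541 to 12975819, 17 of 33 were lower, and cerebrum was lowest with 1.45 beside 1.67 in ovary and 1.76 in cerebellum. A run on chromosome 4 at 88128043 to 88221850, ending 54.6 kb before the last union region, had 15 lower of 25, with 1.34 in cerebellum and 1.67 in cerebrum beside 1.95 to 3.75 in the other 9.

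**Figure D4:**
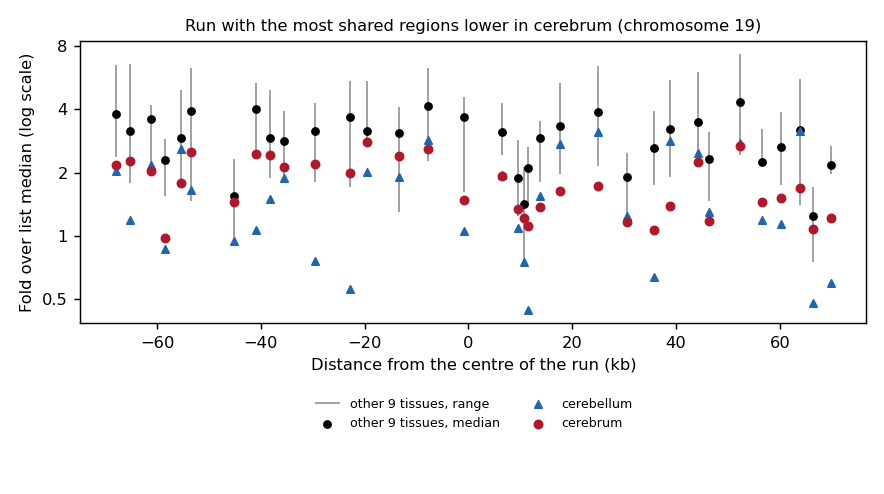
Relative fold (y axis, log scale) of the 34 shared regions in the chromosome 19 run, by distance from its centre (x axis, kb). Cerebrum (red) and cerebellum (blue) mostly lie below the medians of the other 9 tissues (black, with their range as grey lines), and cerebrum is the lowest of 11 in 9 regions.

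Among the higher regions, the run with most members lay on chromosome 33 at 26755265 to 26838323, with 8 of its 21 shared regions higher and a median ratio of 0.31. Cerebrum was the highest of the 11 lists in 8 of the 21, at a median relative fold of 1.74 beside 1.62 in cerebellum. A shorter run on chromosome 5 at 64442638 to 64459618 had 6 higher of 7 shared regions, and all 7 ratios lay above 0. There the median relative fold was 2.77 in cerebrum and 1.41 to 1.81 in the other 9 tissues apart from cerebellum, which was lowest with 1.14. Further along chromosome 5, at 64585988 to 64600335, 4 regions found in cerebrum alone lay together with folds of 3.04 to 5.31.

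Of the regions found in cerebrum alone, 2.80% lay in 32 runs, which ranked 6 of 11. The other lists had a median of 3.06%, with 2.45% in kidney, whose count of such regions was similar, and 36.8% in cerebellum. Of the lacking regions 0.84% lay in 4 runs, against a median of 1.38% in the other lists and 40.1% in cerebellum. In a run on chromosome 22 at 49941547 to 49959261, 1 of 2 runs with the most members, all 7 union regions within 17.7 kb were found in cerebrum alone. Their folds ranged from 3.09 to 6.62, and their widths from 258 to 1746 bases, the latter the widest of all 3816. The nearest regions of all 11 lists lay 28.3 kb before and 5.27 kb after the run. The one after it, at 49964535 to 49965842, had a peak fold in cerebrum that was below the median of the others, 15.1.

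Both classes were spread over all 38 autosomes. Regions found in cerebrum alone made up 0.85% of the union regions, at 1.73 per Mb. By chromosome the share ranged from 0.59% on chromosome 37 (95% Wilson interval 0.44 to 0.81%) to 1.08% on chromosome 34 (0.88 to 1.32%), and the interval left out the overall share on 6 of 38 chromosomes. The lacking regions were 0.32% of the union regions, with 0.19% on chromosome 30 and 0.60% on chromosome 32 (0.41 to 0.86%) as extremes, and the interval left out the overall share on 5 chromosomes. Chromosome 19 was second with 0.51%, and 2 of the 4 runs of lacking regions lay there, at 46466163 to 46488052 and 46508239 to 46532407. Within those stretches cerebrum held 3 of 14 and 3 of 10 union regions. The other lists held 7 to 14 and 7 to 10, with 14 and 9 in cerebellum. In each stretch 3 regions were the lacking ones, which by definition count in every list but that of cerebrum.

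**Figure D5:**
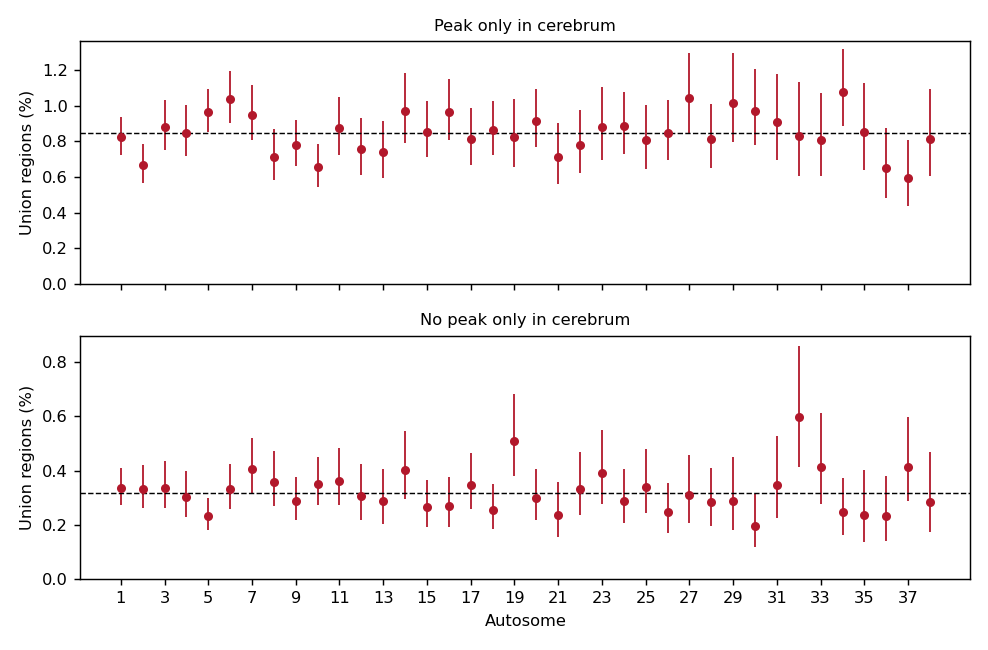
Percent of the union regions of each autosome (x axis) with a peak only in cerebrum (top) and without a peak only in cerebrum (bottom). Points are shares, bars are 95% Wilson intervals and dashed lines the shares over all autosomes, 0.85% and 0.32%, and most bars cross them.

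The density of cerebrum peaks ranged from 69.3 per Mb on chromosome 32 to 207.5 per Mb on chromosome 26, and their median width from 300 bases on chromosome 32 to 407 on chromosome 18. On all 38 autosomes the cerebrum median width exceeded the median of the other 10 lists, and on 13 it exceeded every one of them. The median ratio in shared regions ranged from -0.06 on chromosome 33 to 0.09 on chromosome 32. After subtraction of the autosomal median of each tissue, the SD of the 38 chromosome medians was 0.028 in cerebrum, against 0.075 in cerebellum and 0.015 in stomach. Toward the distal ends of chromosomes the ratio was lower. Within 1 Mb of the last union region its median was -0.11, below the chromosome's own median on 31 of 38 chromosomes. Of the 5615 shared regions there 15.2% were at least 1.5 times lower, against 11.6% over all shared regions. At 10 to 20 Mb from the end the median was 0.03, and 10.3% were lower. Regions near the end were also stronger in the other lists, with a median relative fold of 2.20 against 1.31, and with quantile normalization the median was -0.01 in the last Mb.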

How the data were processed

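MBD-seq and input libraries of 11 dog tissues were made by the submitters, with 1 autosomal and X peak list per tissue. Per the submitters' processing notes the build was CanFam 3.1. The aligner, peak caller, filters and control of the fold, and how both libraries were combined, are not given in the sources used here. The deposited lists have no header and were read by the place of their columns: a fold enrichment (a ratio) and a −log10 p-value for every peak, both computed by the authors.

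Peaks of autosomes 1 to 38 were merged, and folds were divided by the list median of autosomal peaks. The regions named were the 10 highest or lowest of each class and the 5 runs with most members, from which those described were taken. Single regions and stretches described beyond these were chosen after their values were seen. Members, lists and rules were chosen with earlier results of these data known. Alternatives were stricter or equal-sized lists, other overlap, merging, fold and run rules, other sets of tissues and each tissue left out. Quantile normalization was added after seeing the data. No genome or annotation of the build was used, so genes and sequences are not given. The scripts were tested on simulated lists. Python 3.11.15, numpy 2.4.6, pandas 2.3.3, scipy 1.17.1 and matplotlib 3.10.9 were used.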

Additional observations from a re-analysis of the deposited data

Results flagged for a closer look

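The values of the other 10 tissues, and of the 5 tissues that include cerebrum and share its animals and input, were searched for a list far from the rest, by the gap of the highest or lowest value to its neighbour relative to the whole range. In 22 groups of values 7 stood out, all of them cerebellum. The groups are not independent, since most lists of the 5 tissues are also among the other 10. No rate by chance was computed for them. Among the other 10 tissues cerebellum stood apart in the number of regions lacking in it alone (13152) and in the percent of these that lay in runs (40.1%). Among the 5 tissues it stood apart in the same measures (13152 and 40.1%), in the number of regions found in it alone (35015), in the percent of these in runs (36.8%) and in the median width of the regions lacking in it alone (554 bases). Several of these values come from the same regions.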

How the results depend on the processing

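The values of the report are 3816 regions found in cerebrum alone, 1428 lacking in it alone, 9171 higher and 14127 lower, with 2.80%, 0.84%, 11.9% and 31.7% in runs. In the strongest 50% of each list, higher and lower regions numbered 1815 and 4868, median widths were 321 (cerebrum alone) and 823.5 bases (lacking), and 1.57% of the regions in cerebrum alone, 2.64% of the higher and 12.9% of the lower regions lay in runs. With equal list sizes there were 4532 higher regions, the widths were 282 and 423.5 bases, and 2.24% of the regions in cerebrum alone and 3.82% of the higher ones lay in runs. Fewer peaks enter both. The percent of higher and lower regions in runs was 16.9% and 29.2% with a fold weighted by width, 7.09% and 37.4% with the list median over shared regions, and 20.0% and 30.6% with quantile normalization; the cause was not tested. Regions with 1 peak in every list held 8648 lower regions, and a threshold of 2 times left 585 higher and 2975 lower. Linking neighbours at 50 kb put 8.12% (cerebrum alone), 2.03% (lacking), 31.3% (higher) and 55.2% (lower) in runs, and at 10 kb 1.44%, 0.210%, 5.36% and 17.1%.

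Against only the 4 tissues of the same animals and input, 11374 regions were in cerebrum alone and 4550 lacking. Against the 4 with a shortest peak over 200 bases there were 11779 and 7278, with 13840 higher and 23835 lower. Leaving out each tissue gave 3878 to 8302 in cerebrum alone (8302 without cerebellum, 7050 without ovary), 1521 to 2736 lacking (2736 without cerebellum), 9346 to 11189 higher and 13595 to 17975 lower. With fewer lists, the first 2 counts are larger by construction. Lower regions outnumbered higher ones under every alternative run. The 20 named shared regions were chosen as the extremes of the log2 ratio, and some alternatives, such as the threshold of 2 times, cannot change that ratio. They kept their direction and 1.5 times under the alternatives in which they were recomputed and still in all lists. Those in all lists were 3 higher and 2 lower with equal list sizes and none in the strongest 50%, and they were not recomputed with presence at 50% of the region. Of the 20, 3 ratios moved by over 1.5 times, all with other sets of tissues, and are given in the report. No paired analysis was possible because both libraries of a tissue share 1 list, which also prevents leaving out a replicate. Depth is unknown, so weak peaks, most of the regions in cerebrum alone among them, could not be told from peaks missed in other lists.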

Other observations

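A stretch of chromosome 23 at 42479121 to 42520012 held 15 union regions in 40.9 kb, 7 of them found in cerebrum alone. Cerebrum was present in 11, colon in 6, stomach in 3 and cerebellum in 2, and the other 7 tissues in none. The stretch was chosen by the 7 regions found in cerebrum alone, which by definition count for cerebrum and for no other list. The folds of the 7 ranged from 3.02 to 6.13 in cerebrum.

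Some of the strongest lacking regions were close neighbours. On chromosome 1, the regions at 51731697 to 51733868 and at 51789807 to 51790413 both lacked a peak in cerebrum alone, and in all 3 such regions lay within these 58.7 kb. Cerebrum held 14 of the 35 union regions of the stretch, colon, lung and pancreas 17 each, and cerebellum 33. By definition, the 3 lacking regions count in every list but that of cerebrum. Of the 12 regions shared by all 11 lists, 10 had a ratio below 0 and 7 were at least 1.5 times lower, with a median log2 ratio of -0.63. The stretch was singled out after its values were seen.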
